A study of Homo sapiens with 24 samples.

Results

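The human hepatoma line Huh7 was studied by RNA sequencing in 2 genotypes, wild type (WT) cells and cells with ABHD6 knocked out (KO), before and after exposure to palmitic acid. The values described here concern 1 quantity, the genotype difference in the 48 h response. It is the change of the KO cells from 0 h to 48 h minus the change of the WT cells over the same time, and it is called the interaction below. It equals the KO minus WT difference at 48 h less that at 0 h, so it can arise from a difference already present in basal medium, from one present at 48 h, or from both. Its value is made from 16 of the 24 libraries, 4 in each of 4 groups: WT in basal medium (0 h), KO in basal medium, WT after 48 h in 800 µM palmitic acid, and KO after 48 h in 800 µM palmitic acid. The 8 libraries taken at 24 h, 4 per genotype, are in none of these groups. They give a further measurement of the genotype difference, and they entered the fit's estimate of the spread, and so the standard errors and p-values: with the 16 libraries alone 8 genes were called for the interaction, 6 of them among the 9 described below. Cells held for 48 h without palmitic acid are not among the libraries, so an effect of the acid cannot be told apart from one of culture time. The labels do not give the number of KO clones or say that the 4 libraries of a group were separate cultures, so p-values measure only the spread between these libraries, which may be technical. Cell type, culture medium and library kit were shared by all groups, and genotype and time were taken from the sample titles, since the written protocol describes harvests on days 0 and 1 only.

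ABHD6 is a membrane serine hydrolase that cleaves monoacylglycerols, among them the endocannabinoid 2-arachidonoylglycerol. Palmitic acid is a saturated fatty acid that causes lipotoxic stress in liver cells, with activation of the unfolded protein response and of the integrated stress response. Much of what follows concerns the mitochondrial genome, a small circle that encodes subunits of the respiratory chain and of the ATP synthase. Its genes lie head to tail, are transcribed as long precursors from each strand, and are released mainly by excision of the transfer RNAs between them. A few neighbours have no transfer RNA between them and share bases. The mature RNA of MT-ATP8 and MT-ATP6, and that of MT-ND4L and MT-ND4, carries both reading frames.

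The genes with the highest positive interaction are 3 such neighbours on the heavy-strand transcript of the mitochondrial genome, MT-ATP8 (chrM:8366-8572), MT-ATP6 (chrM:8527-9207) and MT-CO3 (chrM:9207-9990, all GRCh38, plus strand). Their junctions are printed because the 3 genes stand in 1 unbroken stretch and reads over a junction belong to both neighbours. A further shared stretch joins MT-ND4L (chrM:10470-10766) and MT-ND4 (chrM:10760-12137), which are described after them. Sequences are from the GENCODE release 29 transcripts on GRCh38, 5′ to 3′ on the plus strand. In the first the capitals mark the start codon of MT-ATP6 and the stop codon of MT-ATP8, at the ends of the 46 bases that both genes hold (chrM:8527-8572). In the second they mark the stop of MT-ATP6 running into the start codon of MT-CO3, where 1 base is shared (chrM:9188-9226), and in the last the 7 bases shared by MT-ND4L and MT-ND4 (chrM:10744-10782).
MT-ATP8 and MT-ATP6: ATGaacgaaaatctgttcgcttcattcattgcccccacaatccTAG
MT-ATP6 and MT-CO3: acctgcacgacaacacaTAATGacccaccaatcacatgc
MT-ND4L and MT-ND4: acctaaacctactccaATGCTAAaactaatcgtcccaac

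Few genes differed between the genotypes in their response. Levels are in FPKM, fragment counts that the authors divided by gene length and library size, and differences are on the scale of log2(FPKM + 0.5), which understates the change of low genes. Among the 17252 genes that averaged 0.5 FPKM or more, limma called 9 genes (0.0522%) for the interaction at a Benjamini-Hochberg adjusted p under 0.05, 3 higher (0.0174%) and 6 lower (0.0348%), and 1139 genes had an unadjusted p under 0.05. Of the 9, 6 are mitochondrially encoded: MT-CO3, MT-ATP6 and MT-ATP8 had a positive interaction, and MT-ND3, MT-ND4 and MT-ND5 a negative one. The other 3, all negative, were ID2, an inhibitor of basic helix-loop-helix transcription factors, and the antisense genes AC009630.2 and AL049830.3. By the level at which they differed, 5 of the 9 were called between KO and WT at 48 h and not at 0 h, 2 at 0 h and not at 48 h, 1 at both times, and 1 at neither. The median interaction of all genes tested was -0.03.

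MT-ATP8 and MT-ATP6 encode subunits of the ATP synthase and MT-CO3 a subunit of cytochrome c oxidase. MT-ATP8 was at 7262, 4885, 5001 and 8343 FPKM in the WT libraries at 0 h and at 6064, 6927, 2979 and 7732 FPKM in the KO libraries. At 24 h it was at 32651 ± 7125 FPKM in WT and 30581 ± 6296 FPKM in KO (SD, n = 4). At 48 h the KO libraries held 38287, 40147, 36519 and 39237 FPKM, and all 4 WT libraries were listed at 0. The genotypes thus overlapped at 0 h and 24 h, and at 48 h the gene had its highest mean in KO and no value above 0 in WT.

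MT-ATP6 followed the same course, at 1244, 818, 824 and 1603 FPKM in WT and 1549, 1493, 743 and 1659 FPKM in KO at 0 h. Its KO libraries held 6952, 6682, 5570 and 5590 FPKM at 48 h, and its WT libraries were listed at 0. MT-CO3 differed in 1 respect, because its KO libraries were already higher at 0 h. It stood at 993, 1055, 1230 and 1080 FPKM in WT and 1781, 1731, 1418 and 2263 FPKM in KO at 0 h, a difference of 0.71 ± 0.12 (standard error; limma, adjusted p = 0.007). At 24 h the means were 4905 ± 313 and 4631 ± 452 FPKM (SD, n = 4), and at 48 h the KO libraries held 4903, 5169, 4386 and 3955 FPKM against 0 in every WT library. The interaction was called for MT-CO3 (limma, adjusted p = 2.44e-24), MT-ATP8 (5.36e-21) and MT-ATP6 (1.95e-19), and each was called in all 28 alternative fits that could test it. Those fits all took in the same zeros, so their number does not show whether the zeros are missing estimates. The fit without genes listed at 0 in a group left these 3 genes out, and it called 0 genes as higher. No fold is given against a group listed at 0. An exact 0 in an FPKM table can be a missing estimate, and for genes this abundant in the same cells at 24 h the table cannot tell a missing estimate from a loss of the RNA. MT-CO1, another cytochrome c oxidase subunit, stood at 410.0 ± 52.8 FPKM in WT and 421 ± 101 FPKM in KO at 0 h (SD, n = 4) and had 0 in each of the 16 later libraries of both genotypes, so that no difference between their responses could show.

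**Figure D1:**
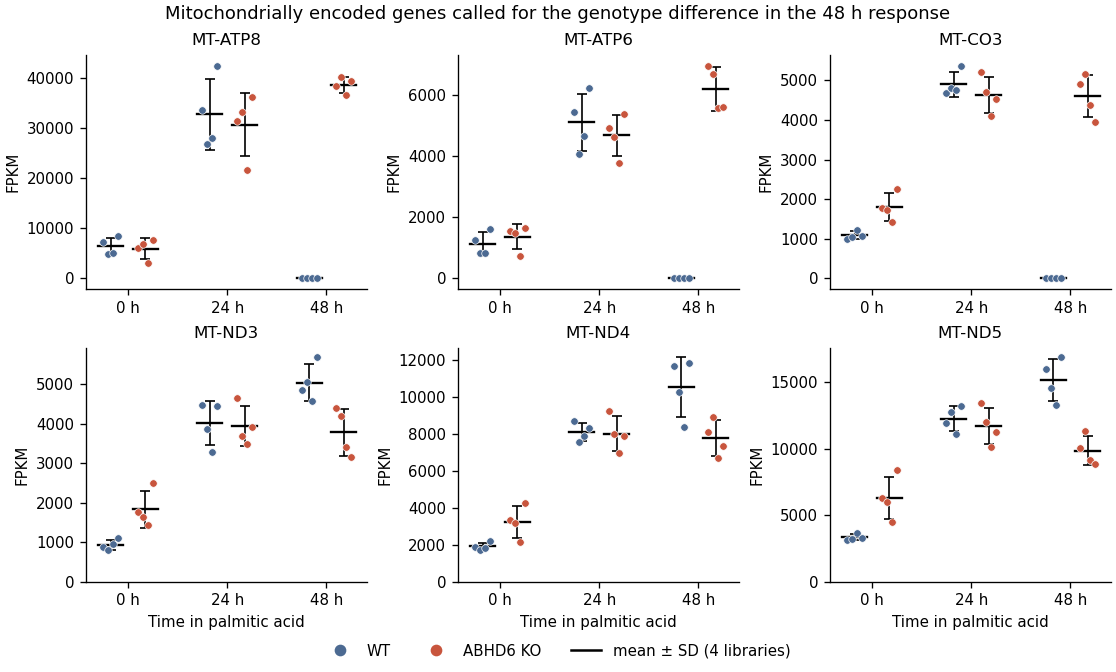
FPKM of 6 mitochondrially encoded genes in each library (points), with the mean and SD of 4 libraries (black), for WT and KO at 0 h, 24 h and 48 h on linear axes from 0. MT-ATP8, MT-ATP6 and MT-CO3 have no WT value above 0 at 48 h, while MT-ND3, MT-ND4 and MT-ND5 are higher in KO at 0 h, level at 24 h and lower in KO on average at 48 h.

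MT-ND3, MT-ND4 and MT-ND5 encode subunits of complex I, the NADH dehydrogenase. Their genotype difference had opposite signs at the start and the end. MT-ND5 (chrM:12337-14148) was at 3158, 3212, 3683 and 3307 FPKM in WT and 6334, 5975, 4526 and 8390 FPKM in KO at 0 h. At 48 h it was at 16005, 14585, 13291 and 16922 FPKM in WT and 10067, 11344, 9162 and 8883 FPKM in KO. The libraries of the genotypes did not overlap at either time, with KO above WT at 0 h and below it at 48 h. The KO minus WT difference was 0.88 ± 0.13 at 0 h (limma, adjusted p = 0.00277) and -0.62 ± 0.13 at 48 h (adjusted p = 0.079), and the interaction was -1.51 ± 0.18 (adjusted p = 0.000129). MT-ND5 rose in both genotypes, by 2.18 ± 0.13 in WT and 0.67 ± 0.13 in KO.

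MT-ND3 (chrM:10059-10404) had the same order of groups, at 874, 790, 960 and 1100 FPKM in WT and 1754, 1641, 1437 and 2500 FPKM in KO at 0 h. At 48 h its values were 4844, 5057, 4569 and 5677 FPKM in WT and 4382, 4195, 3406 and 3147 FPKM in KO, again without overlap at both times. The difference was 0.96 ± 0.15 at 0 h (limma, adjusted p = 0.00354) and -0.42 ± 0.15 at 48 h (adjusted p = 0.507), with an interaction of -1.38 ± 0.21 (adjusted p = 0.00413). MT-ND4 was at 1859, 1736, 1818 and 2202 FPKM in WT and 3342, 3162, 2122 and 4231 FPKM in KO at 0 h. At 48 h it was at 11663, 10238, 8352 and 11824 FPKM in WT and 8117, 8904, 6693 and 7346 FPKM in KO, and its genotypes overlapped at both times. Its interaction was -1.15 ± 0.21 (limma, adjusted p = 0.0319), although neither the 0 h difference (0.72 ± 0.15, adjusted p = 0.0709) nor the 48 h difference (-0.43 ± 0.15, adjusted p = 0.492) was called. With the 16 libraries alone MT-ND3 (adjusted p = 0.0518) and MT-ND4 (0.281) were not called. Leaving out 1 library ended the MT-ND4 call in 12 of 16 fits, and without a variance trend none of the 3 was called (adjusted p = 0.132 for MT-ND5, 0.37 for MT-ND3 and 0.598 for MT-ND4). MT-ND4L, which shares the printed bases with MT-ND4, had an interaction of -1.46 ± 0.30 that was not called (adjusted p = 0.0827).

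The means of the 24 h libraries do not enter the value of the interaction. The KO minus WT difference at 24 h was -0.07 ± 0.13 for MT-ND5, -0.03 ± 0.15 for MT-ND3 and -0.02 ± 0.15 for MT-ND4, and MT-CO3 stood at -0.09 ± 0.12 there. Each of these is smaller than its standard error, so a difference of the size seen at 0 h did not appear in the 24 h values of the 4 genes. In genome order the 0 h difference was highest over the contiguous genes MT-CO3, MT-ND3, MT-ND4L, MT-ND4 and MT-ND5, at 0.71 to 0.96. It was lower in MT-ND2 (0.25 ± 0.15), MT-CO2 (0.15 ± 0.13), MT-ATP6 (0.27 ± 0.22) and MT-CYB (0.39 ± 0.15), and below 0 in MT-ND1 (-0.33 ± 0.15), MT-ATP8 (-0.15 ± 0.23) and MT-ND6 (-0.06 ± 0.15). MT-ND6, a complex I subunit, is the only protein gene on the minus strand of the circle and had the highest FPKM of the 13 at 0 h, 20502 ± 2764 in WT and 19545 ± 1609 in KO (SD, n = 4).

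**Figure D2:**
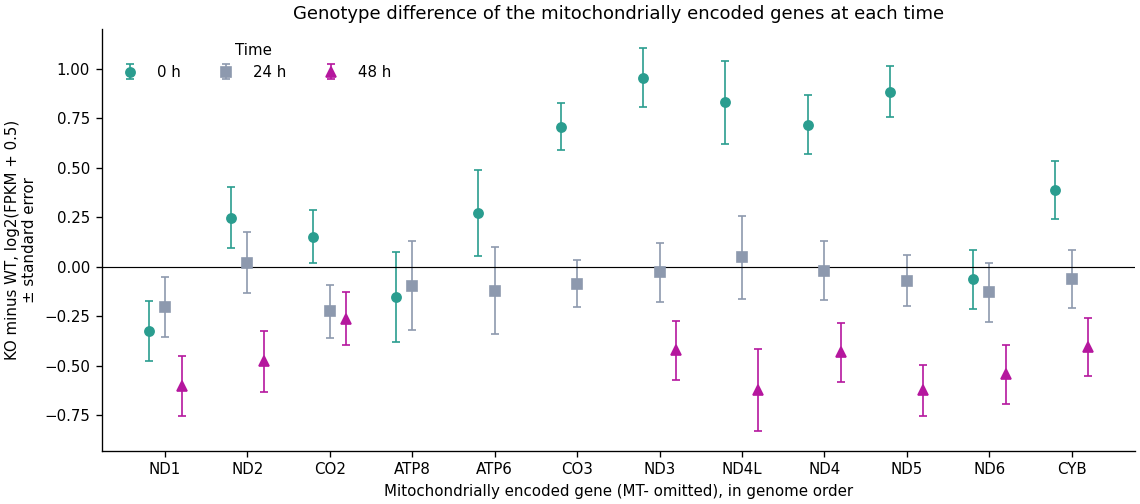
KO minus WT difference on the log2(FPKM + 0.5) scale, with its standard error, for 12 mitochondrially encoded genes in genome order at 0 h (circles), 24 h (squares) and 48 h (triangles). The 0 h values peak from CO3 to ND5, the 24 h values lie near 0, and the 48 h values are below 0 in every gene drawn; the 48 h values of ATP8, ATP6 and CO3 are left out because WT is listed at 0, and CO1 is not drawn.

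Over all 13 mitochondrially encoded protein genes the median interaction was -0.48, with 3 positive and 10 negative. Together they held 11.47%, 10.61%, 10.4% and 12.1% of the summed FPKM in WT and 13.62%, 14.95%, 13.38% and 13.18% in KO at 48 h, so that KO was higher without overlap. The WT shares hold nothing from MT-ATP8, MT-ATP6 and MT-CO3, whose zeros there may be missing estimates. The order of the genotypes over all 13 genes thus rests on those 3. The 9 genes with a value above 0 in all 24 libraries are described apart, and this choice leaves out the 3 positive genes, so the direction of the rest follows in part from it. For these 9, KO was higher than WT for 7 at 0 h, lower for 7 at 24 h and lower for 9 at 48 h, with median differences of 0.39, -0.06 and -0.48. Their interactions had a median of -0.8, and 3 of them were called. The libraries of the genotypes did not overlap for 3 of the 9 at 0 h (2.72% of all genes tested), 0 at 24 h (2.92%) and 5 at 48 h (4.11%). These genes lie on 1 molecule and share precursors, so they are not independent of each other. All 9 were called as higher at 48 h than at 0 h in both genotypes, by a median of 2.4 in WT and 1.31 in KO. Their summed FPKM was 28265, 30238, 33567 and 27739 in WT and 33870, 32913, 32425 and 41649 in KO at 0 h. At 48 h the sum was 105193, 98842, 98670 and 90530 in WT and 68854, 76361, 73501 and 56569 in KO. In these 9 genes the KO libraries thus held less than any WT library at 48 h, the reverse of the order over all 13, and at 24 h the ranges overlapped, with means of 73949 ± 3595 in WT and 69108 ± 3539 in KO (SD, n = 4).

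ID2 (chromosome 2, 8678845 to 8684453, GRCh38), which overlaps ID2-AS1 on the opposite strand, was called with zeros on the other side. Here too an exact 0 can be a missing estimate. It was at 7.83, 16.7, 5.78 and 7.79 FPKM in WT and 10.9, 5.52, 24.2 and 8.32 FPKM in KO at 0 h. At 48 h the WT libraries held 10.6, 7.5, 6.02 and 9.17 FPKM and all 4 KO libraries were listed at 0, with 24 h means of 5.5 ± 4.9 and 3.65 ± 2.43 FPKM (SD, n = 4) between. The KO minus WT difference was called at 48 h (limma, adjusted p = 0.0006) and the interaction had an adjusted p of 0.0297, which was kept in 6 of 16 fits with 1 library left out and became 0.0917 with a pseudocount of 1. ID1, ID3 and ID4, its paralogues, were detected in KO at 48 h, at 7.73 ± 4.97, 1.91 ± 2.65 and 1.02 ± 0.45 FPKM (SD, n = 4). Their interactions were -1.15 ± 1.12, -0.18 ± 1.64 and -1.1 ± 1.08, none of them called.

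AC009630.2 (chromosome 8, 41540381 to 41545044, minus strand) overlaps GINS4, a subunit of the replicative helicase complex, and AL049830.3 (chromosome 14, 30876179 to 30889808, minus strand) overlaps COCH, which encodes the secreted protein cochlin. AC009630.2 was at 1120, 1094, 896 and 989 FPKM in WT and 1085, 1172, 1050 and 1144 FPKM in KO at 0 h, and at 434, 440, 362 and 422 FPKM in WT and 262, 222, 242 and 191 FPKM in KO at 48 h. It overlapped between the genotypes at 0 h and not at 48 h. It fell in both genotypes, by 1.30 on the log2 scale in WT and by 2.28 in KO, and the interaction was -0.98 ± 0.15 (limma, adjusted p = 0.00413). At 24 h the genotypes were level, at 502 ± 47.3 and 492 ± 29.7 FPKM (SD, n = 4). AL049830.3 was at 1339, 1182, 1022 and 1032 FPKM in WT and 1421, 975, 1297 and 1352 FPKM in KO at 0 h, and at 833, 720, 811 and 669 FPKM in WT and 429, 459, 439 and 431 FPKM in KO at 48 h. Its interaction was -0.92 ± 0.17 (limma, adjusted p = 0.0297; called in 5 of 16 fits with 1 library left out; adjusted p = 0.134 with the 16 libraries alone), and here KO was below WT at 24 h too, by -0.47 ± 0.12 (adjusted p = 0.467). Without a variance trend neither gene was called (adjusted p = 0.598 and 0.633).

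How the authors' quantification treated strand is not stated, although the library kit keeps it, and antisense genes held 44.0% to 58.1% of the summed FPKM of a library. GINS4 itself was at 1.65 ± 0.339 FPKM in WT and 1.72 ± 2.31 FPKM in KO at 48 h, and COCH at 31.1 ± 2.18 and 19.9 ± 1.58 FPKM (SD, n = 4). COCH had an interaction of the same sign as its antisense gene, -1.59 ± 0.47 (limma, adjusted p = 0.457). Which strand's RNA the antisense values come from cannot be told apart with these files. The same doubt touches each gene here that overlaps another on the opposite strand. Among them are ID2, HPS3, CSNK1D, NQO1, MMEL1, CCDC152, EIF4G2, REPS1, FTH1, APOA1 and TYMS. With only the 9213 genes that have no such overlap the interaction calls were the 6 mitochondrial genes. That setting does not free these 6 of the doubt, because both strands of the mitochondrial genome are transcribed.

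Nearly all genes called in both responses moved the same way. WT cells had 1171 genes called between 48 h and 0 h (6.79% of those tested), 443 higher (2.57%) and 728 lower (4.22%), and KO cells 1695 (9.82%), 587 higher (3.4%) and 1108 lower (6.42%). Rescaled by median of ratios, the splits were 591 and 585 in WT and 813 and 849 in KO, and with quantile normalization 544 and 390 in WT and 747 and 677 in KO. The 2 sets shared 783 genes, 66.9% of the WT calls and 46.2% of the KO calls, and 779 of these had the same direction. The 4 with opposite directions were MT-ATP8, MT-ATP6, MT-CO3 and the hyaluronidase gene HYAL1, which was looked up after its values were seen. HYAL1 had 0, 0, 1.29 and 0.882 FPKM in WT and 4.7, 5.48, 4.16 and 3.24 FPKM in KO at 0 h, and 4.2, 2.66, 5.05 and 6.88 FPKM in WT and 0.903, 1.45, 0 and 0 FPKM in KO at 48 h. Its ranges were apart at both times in opposite order, and its interaction of -4.89 ± 1.03 was not called (limma, adjusted p = 0.0999). A further 912 genes were called in KO alone and 388 in WT alone, but the test of the difference called 1 of the former, ID2, and 0 of the latter. Of those called in KO alone 820 (89.9%) had the same sign in WT, and of those called in WT alone 343 (88.4%) had the same sign in KO. Across all genes tested the KO and WT responses, which share no library, had a Pearson r of 0.379 and a Spearman rho of 0.383, and across the 3341 genes with a mean of 20 FPKM or more 0.587 and 0.704; genes are not independent replicates.

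The comparison at 0 h asked which of the differences were there before palmitic acid. KO and WT cells in basal medium differed in 17 called genes (0.0985%), 4 higher in KO (0.0232%) and 13 lower (0.0754%), with 1194 at an unadjusted p under 0.05. Without replicate 0 of WT at 0 h the count was 36, and without a variance trend it was 8, with MT-CO3 (adjusted p = 0.358), MT-ND3 (0.209), MT-ND5 (0.225), VIM-AS1 (0.0963) and AL133415.1 (0.0598) among the calls lost. Those higher were MT-CO3, MT-ND3, MT-ND5 and PIGG, which encodes an enzyme of glycosylphosphatidylinositol anchor synthesis. Those lower included NDRG1, a stress and hypoxia responsive gene, CSNK1D, which encodes casein kinase 1 delta, NQO1, a quinone reductase induced by NRF2, HPS3, a lysosome-related organelle trafficking gene, AKR7A2, an aldehyde reductase, and ADGRG5, an adhesion G protein-coupled receptor. The other 7 are antisense or long intergenic RNA genes, among them VIM-AS1 and AL133415.1, opposite the intermediate filament gene VIM, and AC005726.4, opposite the glycolytic gene ALDOC.

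HPS3 (chromosome 3, 149129584 to 149173732) overlaps the ceruloplasmin gene CP on the opposite strand. It was at 194, 259, 185 and 251 FPKM in WT and 67.9, 53.2, 61.8 and 75.1 FPKM in KO at 0 h, a difference of -1.77 ± 0.24 (limma, adjusted p = 0.000747) with no overlap. At 24 h KO differed by -1.01 ± 0.24 (adjusted p = 0.34), and at 48 h by -0.66 ± 0.24 (adjusted p = 0.528), with means of 224 ± 72.3 FPKM in WT and 137 ± 23 FPKM in KO (SD, n = 4). CP did not differ to that extent, with -0.32 ± 0.19 at 0 h. AC005726.4 gave 643, 734, 855 and 855 FPKM in WT and 201, 187, 194 and 160 FPKM in KO at 0 h, a difference of -2.05 ± 0.27 (adjusted p = 0.000747). The same gene was lower in KO by -1.39 ± 0.27 at 24 h (adjusted p = 0.0853) and by -0.57 ± 0.27 at 48 h (adjusted p = 0.743), when its libraries overlapped. ALDOC, on the other strand, was at 5.31 ± 4.02 FPKM in WT and listed at 0 in all KO libraries at 0 h.

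CSNK1D (chromosome 17, 82239023 to 82273731) was at 114, 141, 138 and 173 FPKM in WT and 32.9, 43.5, 21.6 and 87.9 FPKM in KO at 0 h, without overlap (-1.77 ± 0.29; limma, adjusted p = 0.007). At 24 h the ranges were still apart, with a KO minus WT difference of -0.68 ± 0.29 (limma, adjusted p = 0.923). By 48 h CSNK1D stood at 148 ± 25 FPKM in WT and 139 ± 28.5 FPKM in KO (SD, n = 4), and it rose in KO (1.73 ± 0.29) with no call in WT (0.07 ± 0.29). The difference of those responses, 1.66 ± 0.42, was not called (adjusted p = 0.293). NDRG1 (chromosome 8, 133237171 to 133302022) held 2.47, 4.38, 8.36 and 15.6 FPKM in WT and 0, 2.01, 0 and 0 FPKM in KO at 0 h (-3.17 ± 0.58, adjusted p = 0.0169; 0.117 in a fit of the 4 groups alone). It stood at 15.4 ± 8.54 FPKM in WT and 16.1 ± 3.52 FPKM in KO at 48 h. The interaction of NDRG1, 3.34 ± 0.82, was again not called (adjusted p = 0.283), and with most of the KO libraries at 0 FPKM at 0 h its size rests on the pseudocount. NQO1 went from 12.9 ± 5.08 FPKM in WT and 2.66 ± 0.716 FPKM in KO at 0 h (-2.05 ± 0.40, adjusted p = 0.0371) to 22.4 ± 9.8 and 13.7 ± 3.77 FPKM at 48 h, with KO lower at 24 h in between (-1.28 ± 0.40, adjusted p = 0.712). The 0 h call of NQO1 held in 5 of 16 fits with 1 library left out.

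VIM-AS1 was at 1737, 2545, 1954 and 1848 FPKM in WT and 875, 908, 822 and 789 FPKM in KO at 0 h (-1.24 ± 0.19; limma, adjusted p = 0.00299). Its neighbour AL133415.1 differed by -1.42 ± 0.22 (adjusted p = 0.00299). At 48 h the differences were -0.15 ± 0.19 and 0.04 ± 0.22, and both genes rose in KO (1.79 ± 0.19 and 1.89 ± 0.22). The interactions were 1.09 ± 0.26 (adjusted p = 0.283) and 1.45 ± 0.31 (adjusted p = 0.0999). AKR7A2 and PIGG were each listed at 0 in 1 genotype at 0 h. AKR7A2 had 10.6, 3.37, 2.41 and 6.96 FPKM in WT and 0 in every KO library, and in both genotypes it was listed at 0 at 48 h. PIGG was listed at 0 in WT and at 2.27, 2.72, 7.94 and 5.89 FPKM in KO, and at 48 h it reached 11.4 ± 5.84 and 12.2 ± 5.18 FPKM (SD, n = 4).

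Measured in the other libraries, most of the 17 baseline differences had the same sign at 24 h and were smaller at 48 h. The sign at 24 h was that at 0 h for 14 of the 17 genes, with a median difference in the 0 h direction of 0.64 and 1 gene called. At 48 h it was the same for 12, with a median of 0.11 (0.42 without regard to sign) and 2 called, against a median of 1.52 at 0 h, the time that chose them. The median at 0 h is that of genes chosen for being called there, and a chosen median is higher than a repeated one. The 2 called at 48 h were ADGRG5 and MT-CO3, each in its 0 h direction.

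At 48 h the KO and WT cells differed in 11 called genes (0.0638%), 4 higher in KO (0.0232%) and 7 lower (0.0406%), with 1131 at an unadjusted p under 0.05. Higher were MT-ATP8, MT-ATP6, MT-CO3 and FBXO38, a subunit of a ubiquitin ligase. FBXO38 (chromosome 5, 148383935 to 148442836) was at 10.5, 7.46, 7.68 and 3.11 FPKM in WT and 32.7, 30.1, 26 and 28.4 FPKM in KO, a difference of 2.06 ± 0.40 (limma, adjusted p = 0.0471). At 0 h and 24 h it differed by 0.39 ± 0.40 and -0.20 ± 0.40. Its interaction, 1.67 ± 0.56, was not called (adjusted p = 0.579), and its 48 h call held in 2 of 16 fits with 1 library left out. The 7 lower genes were ID2, AC009630.2, AL049830.3, ADGRG5, MMEL1, which encodes a membrane metallopeptidase, CCDC152, which overlaps the selenium transport gene SELENOP, and AC023024.1, which overlaps the proprotein convertase gene PCSK6.

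MMEL1 was at 113, 127, 168 and 70.8 FPKM in WT and 38.2, 52.1, 15.4 and 45.3 FPKM in KO at 48 h (-1.72 ± 0.31; limma, adjusted p = 0.0293; called in 10 of 16 fits with 1 library left out). At 0 h the difference was -0.56 ± 0.31, at 24 h it was -0.10 ± 0.31, and the interaction of -1.16 ± 0.44 was not called (adjusted p = 0.638). CCDC152 stood at 8290, 7390, 7191 and 5719 FPKM in WT and 5275, 4660, 5447 and 4451 FPKM in KO at 48 h (-0.52 ± 0.10, adjusted p = 0.0471), after -0.05 ± 0.10 at 0 h and -0.21 ± 0.10 at 24 h. SELENOP on the other strand was at 41.9 ± 15.2 and 35.1 ± 10.5 FPKM at 48 h (SD, n = 4). AC023024.1 was lower in KO by -0.77 ± 0.15 at 48 h (adjusted p = 0.0471) and by -0.57 ± 0.15 at 0 h (adjusted p = 0.254). The 48 h calls of CCDC152 and AC023024.1 held in 2 and 1 of 16 fits with 1 library left out. The 48 h count rested most on replicate 3 of WT at 48 h, the library with the lowest summed FPKM and the most genes above 0: without it 33 genes were called in place of 11, while the interaction again had 9 calls, 7 of them among the 9 above.

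ADGRG5 (chromosome 16, 57542421 to 57591681) was called lower in KO at both 0 h and 48 h, and the other gene called at both times was MT-CO3, higher in KO, with WT at 0 at 48 h. It was at 18.3, 29.7, 21.4 and 15 FPKM in WT and 7.84, 5.16, 5.41 and 6.56 FPKM in KO at 0 h. At 48 h it was at 19.4, 28.2, 24.2 and 16.2 FPKM in WT and 8.75, 6.06, 5.8 and 8.03 FPKM in KO. The KO libraries lay below every WT library at both times. The differences were -1.65 ± 0.30 at 0 h (limma, adjusted p = 0.0143) and -1.54 ± 0.30 at 48 h (adjusted p = 0.0471; called in 7 of 16 fits with 1 library left out), with -0.79 ± 0.30 at 24 h, and the interaction was 0.11 ± 0.42. AC092115.2, an antisense gene opposite NQO1, came next to it, at -0.82 ± 0.16 at 0 h (adjusted p = 0.0463; called in 5 of 16 fits with 1 library left out), -1.03 ± 0.16 at 24 h (adjusted p = 0.0339) and -0.73 ± 0.16 at 48 h (adjusted p = 0.119). At 24 h it was the 1 gene called lower (0.0058%), of 2 called in all (0.0116%), with 892 at an unadjusted p under 0.05. The other, called higher (0.0058%), was SCAMP3, a vesicle membrane protein gene, which was at 0, 0, 0 and 2.28 FPKM in WT and 7.24, 4.74, 7.43 and 6.11 FPKM in KO.

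**Figure D3:**
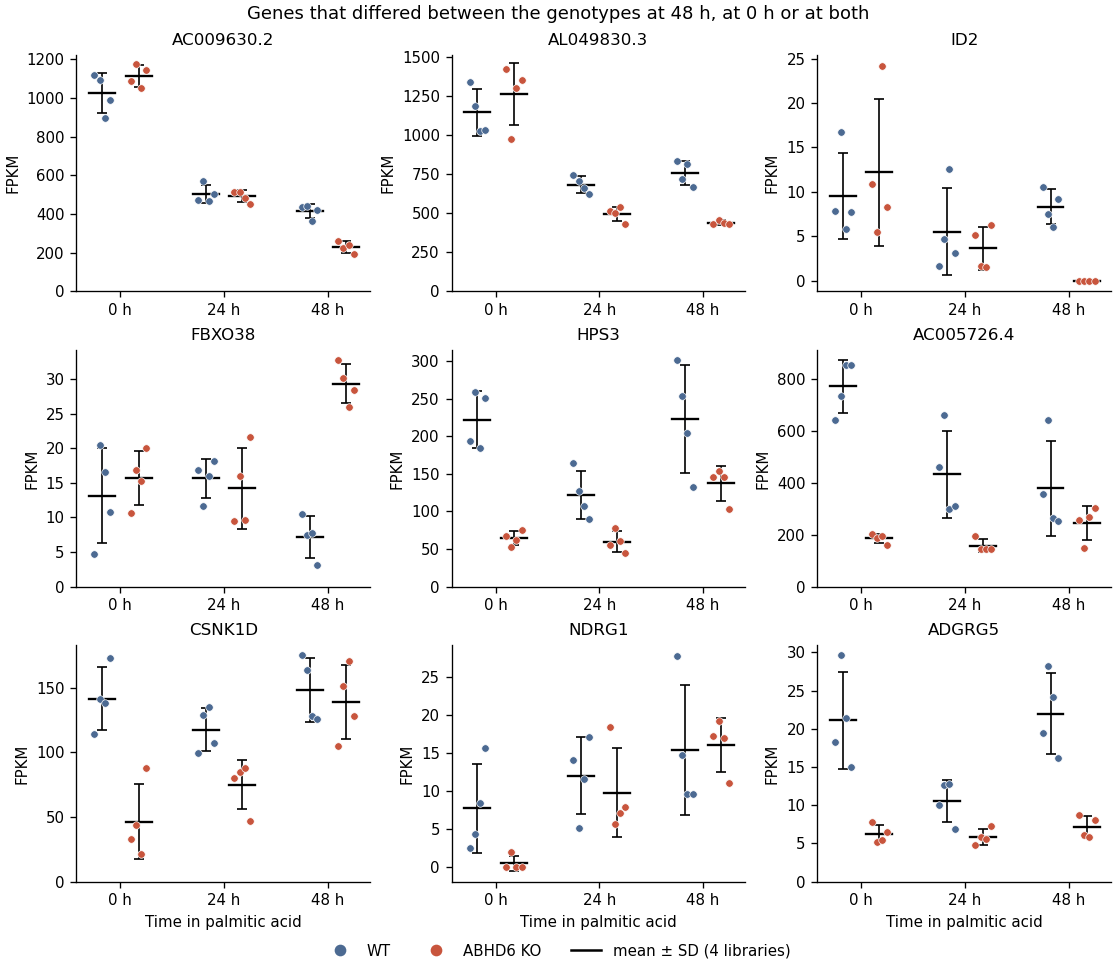
FPKM of 9 genes in each library (points), with the mean and SD of 4 libraries (black), for WT and KO at 0 h, 24 h and 48 h on linear axes. AC009630.2, AL049830.3, ID2 and FBXO38 separate at 48 h, HPS3, AC005726.4, CSNK1D and NDRG1 at 0 h, and ADGRG5 at both. AL049830.3, HPS3, AC005726.4 and CSNK1D are also apart at 24 h.

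Across all genes the genotype difference at 0 h said little about that at 48 h. Over the 17252 genes tested the Pearson r between them was 0.019, and over the 3341 genes at 20 FPKM or more it was 0.028, with signs that matched in 47.6%. The corresponding values of 24 h against 48 h were 0.015 and 0.038, and the Spearman rho at 20 FPKM or more was 0.145. These are descriptions across genes, and sampling noise in low genes pulls them towards 0. Among the 1139 genes with an unadjusted interaction p under 0.05, the larger difference was at 0 h in 562 (49.3%) and at 48 h in 577 (50.7%), and 1011 (88.8%) had opposite signs at the 2 times. A large interaction needs differences that do not cancel, so opposite signs follow in part from the choice of these genes.

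**Figure D4:**
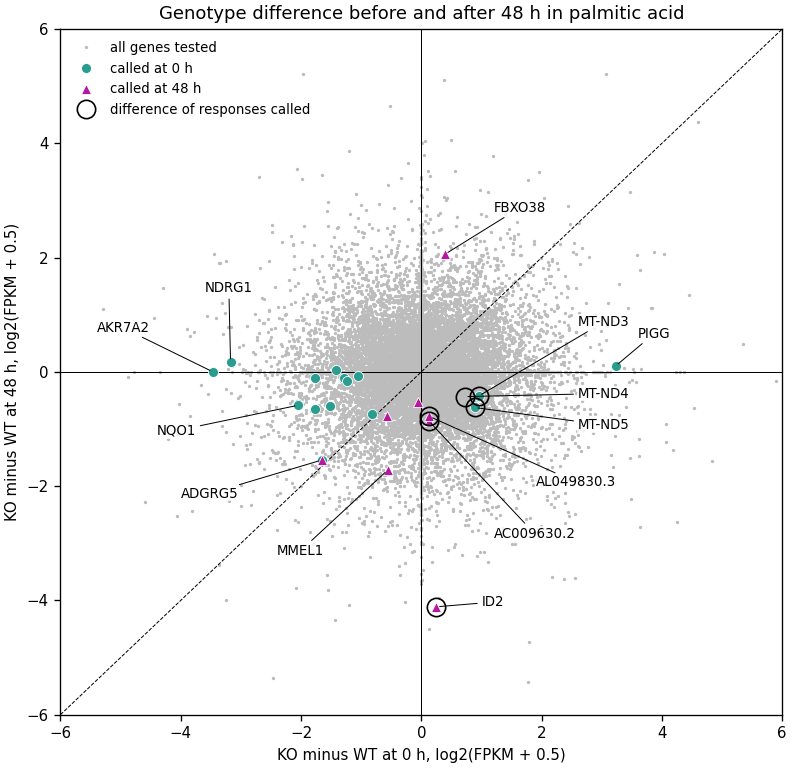
KO minus WT difference at 48 h (vertical) against that at 0 h (horizontal), log2(FPKM + 0.5), for 17248 of the genes tested, with genes called at 0 h (circles), at 48 h (triangles) and for the interaction (open rings). Points on the dashed line have no interaction; ADGRG5 lies close to the line, and 4 genes outside the axes, 3 of them called for the interaction, are not drawn.

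The precision of the interaction depended on the level of the gene. Its median standard error was 1.14 for genes at 0.5 to 2 FPKM, 1.24 at 2 to 5, 0.88 at 5 to 20, 0.49 at 20 to 100 and 0.26 at 100 FPKM or more, and 8 of the 9 calls were in the last class. By moderated t the next genes on the negative side included NR2C2, an orphan nuclear receptor, with 134, 130, 137 and 129 FPKM in WT and 203, 161, 184 and 195 FPKM in KO at 0 h. At 48 h NR2C2 had 169, 123, 125 and 132 FPKM in WT and 108, 100, 100 and 82.4 FPKM in KO, so it too crossed from above to below without overlap. Its interaction was -0.96 ± 0.19 (limma, adjusted p = 0.0509), and it was called in 9 of 28 alternative fits. POM121, a nuclear pore protein gene (-0.94 ± 0.21), and ZNF276, a zinc finger gene (-1.26 ± 0.28), both had an adjusted p of 0.137, as did the ribosomal pseudogene RPS11P5 (-2.42 ± 0.53), whose reads may be shared with its parent gene. NR2C2, POM121 and ZNF276 overlap genes on the opposite strand.

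On the positive side no gene outside the mitochondrial block was called. EIF4G2, a translation factor for cap-independent initiation, was at 78.7, 123, 123 and 151 FPKM in WT and 110, 90, 60.3 and 122 FPKM in KO at 0 h, and at 91, 93.2, 107 and 96.5 FPKM in WT and 210, 146, 181 and 192 FPKM in KO at 48 h. The overlap at 0 h gave way to separate ranges at 48 h, with an interaction of 1.22 ± 0.29 (limma, adjusted p = 0.27). GSPT1, the translation termination factor eRF3a, had an interaction of 1.96 ± 0.52 (adjusted p = 0.323): it fell in WT, from 22.2 ± 1.86 to 9.75 ± 4.35 FPKM, and was at 11.7 ± 8.41 and 16.9 ± 1.61 FPKM in KO (SD, n = 4). SELENOF, an endoplasmic reticulum selenoprotein gene, was at 8.38 ± 4.02 and 8.35 ± 2.45 FPKM in WT and rose in KO from 2.18 ± 1.86 to 16.7 ± 3.13 FPKM, with an interaction of 2.98 ± 0.83 (adjusted p = 0.386). REPS1, an endocytic adaptor gene (4.54 ± 1.09, adjusted p = 0.27), and the kinase gene FER (4.5 ± 1.14, adjusted p = 0.296) had larger values with wide spreads, REPS1 ranging from 5.61 to 29.7 FPKM in WT at 0 h alone.

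Gene lists of liver, lipid and stress biology were described by counts and medians, beside the median of all genes. In 32 lists other than the mitochondrially encoded genes, 0 members were called for the interaction, beside 0.0522% of all genes, a share at which few calls could fall in lists of this size. Of all 17252 genes tested 8148 had a positive interaction and 8944 a negative one, and 6.6% had an unadjusted p under 0.05. The list of the integrated stress response, in which ATF4 induces amino acid and stress genes, had a median interaction of 0.59 over 27 genes, 21 of them positive and 1 with an unadjusted p under 0.05. Its median KO minus WT difference was -0.14 at 0 h and 0.25 at 48 h. ATF3, a transcription factor downstream of ATF4, was at 3.6, 6.84, 9.83 and 6.73 FPKM in WT and 16, 23.8, 20 and 15.3 FPKM in KO at 48 h, without overlap, and at 0 in 2 WT and 3 KO libraries at 0 h. It rose in both genotypes, and its interaction was 2.32 ± 0.91 (limma, adjusted p = 0.641). ATF4 (0.60 ± 0.32, adjusted p = 0.794) and TRIB3, a pseudokinase induced by stress (0.77 ± 0.43, adjusted p = 0.799), were not called either, and 6 of the 27 members rose in WT and 9 in KO, beside 2.57% and 3.4% of all genes.

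The hypoxia and glycolysis list had a median interaction of 0.30, positive in 19 of 22 genes, and here the difference was at the start, with a median KO minus WT value of -0.54 at 0 h and -0.02 at 48 h. Its member NDRG1 was called at 0 h. LDHA, lactate dehydrogenase A, was at 195, 171, 228 and 254 FPKM in WT and 138, 138, 130 and 150 FPKM in KO at 0 h, and at 136 ± 19.2 and 139 ± 22.4 FPKM at 48 h (SD, n = 4). The ranges of LDHA were apart at 0 h (-0.59 ± 0.17; limma, adjusted p = 0.35) and overlapped at 48 h, and LDHA fell in WT (-0.63 ± 0.17) and was level in KO (-0.01 ± 0.17), with an interaction of 0.62 ± 0.25 (adjusted p = 0.656). PFKFB3, a glycolytic activator, had 1.25, 10.4, 7.02 and 2.4 FPKM in WT and 0, 0, 0 and 0.565 FPKM in KO at 0 h (-2.9 ± 0.61, adjusted p = 0.0709). In each library the median over the 22 genes, each centred on its mean over the 24 libraries, was 0.14, 0.24, 0.37 and 0.64 in WT and -0.16, -0.21, -0.12 and -0.45 in KO at 0 h. At 24 h those medians were 0.16, -0.03, -0.07 and -0.14 in WT and 0.11, -0.03, -0.05 and -0.37 in KO, so the separation seen at 0 h was not present there. Other lists were apart at 0 h too. KO was lower for liver plasma proteins and hepatocyte identity (median KO minus WT -0.44) and for cholesterol synthesis and uptake (-0.17), among others. It was higher for the mitochondrially encoded proteins (0.27).

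The NRF2 list, genes of the oxidative stress response, had a median interaction of 0.23 over 25 genes, 19 of them positive, with 5 members called higher at 48 h in WT and 9 in KO, beside 2.57% and 3.4% of all genes. TXNRD1, thioredoxin reductase, was at 55, 55.7, 68.7 and 59.3 FPKM in WT and 101, 101, 115 and 96.1 FPKM in KO at 48 h, and at 38.8 ± 5.8 and 42.7 ± 8.64 FPKM at 0 h (SD, n = 4). The genotypes were apart at 48 h, though neither that difference (0.79 ± 0.20; limma, adjusted p = 0.231) nor the interaction (0.66 ± 0.29, adjusted p = 0.697) was called. FTH1, the ferritin heavy chain, was likewise at 944 ± 71.2 FPKM in WT and 1290.0 ± 138 FPKM in KO at 48 h, with an interaction of 0.60 ± 0.25 (adjusted p = 0.671). In the acute phase and fibrinogen list 2 of 12 interactions were positive and the median was -0.09, which became 0 under quantile normalization. The KO minus WT median of the list was -0.19 at 0 h, -0.55 at 24 h and -0.48 at 48 h, so it was not particular to 48 h. The per-library medians of this list at 48 h were 0.44, 0.39, 0.27 and 0.52 in WT and -0.13, -0.09, -0.13 and -0.12 in KO, with no member called between the genotypes at that time. Such medians were apart at 48 h in further lists. KO was higher for NF-kB and inflammatory genes, and lower for apolipoproteins and lipoprotein assembly and for DNA replication and G1/S. APOA1, the main protein of high-density lipoprotein, was at 46.1, 62.2, 74.4 and 54.6 FPKM in WT and 30, 27.8, 34.9 and 34.7 FPKM in KO at 48 h, a difference of -0.87 ± 0.19 (adjusted p = 0.119) beside -0.88 ± 0.19 at 24 h and -0.16 ± 0.19 at 0 h. APOA1 fell in KO (-1.24 ± 0.19), and its interaction was -0.71 ± 0.27 (adjusted p = 0.641).

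**Figure D5:**
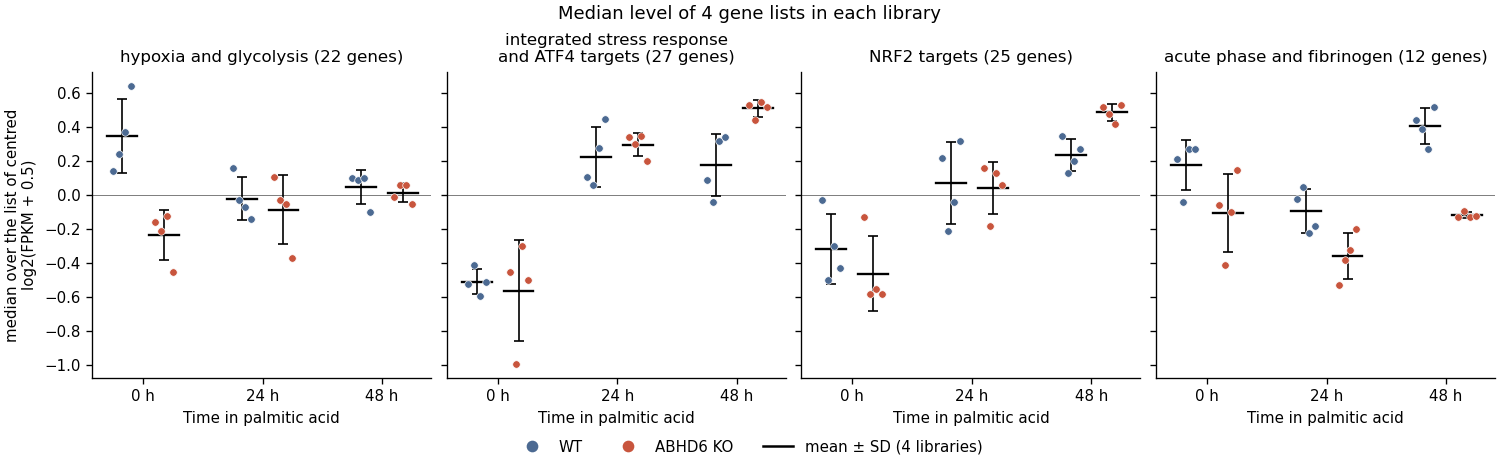
Median over each list of log2(FPKM + 0.5), each gene centred on its mean over the 24 libraries, per library (points) with the mean and SD of 4 libraries (black). The hypoxia and glycolysis medians are lower in all KO than in all WT libraries at 0 h and overlap later. The other lists drawn are apart at 48 h, with KO higher for the stress response and NRF2 lists and lower for the acute phase list. Some lists not drawn are apart at 48 h too.

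The ceramide and sphingolipid enzymes had a median interaction of 0.62 over 19 genes, 13 of them positive, and SMPD1, acid sphingomyelinase, ranged from 1.82 to 40.6 FPKM within WT at 0 h alone. Immediate early genes had a median of 0.44 (12 of 15 positive), and cytosolic ribosomal proteins one of 0.11 (24 of 35 positive). The G1/S and G2/M lists had medians of -0.26 (8 of 24 positive) and -0.17 (9 of 24), and TYMS, thymidylate synthase, fell in KO (-0.87 ± 0.22) with 0.07 ± 0.22 in WT. The interaction of TYMS, -0.94 ± 0.31, was not called (limma, adjusted p = 0.567). Genes of monoacylglycerol and endocannabinoid metabolism, the pathway of ABHD6, had a median of -0.07 over 11 tested genes (0.01 under quantile normalization), 5 of them positive. Called members numbered 0 at 0 h, at 48 h and in either response. Beside this stand 0.0985% and 0.0638% of all genes at 0 h and 48 h, and 6.79% and 9.82% in the WT and KO responses. At those shares few calls could fall among 11 genes. MGLL, the other main monoacylglycerol hydrolase, was at 1.36 ± 0.501 FPKM in WT and 0.498 ± 0.368 FPKM in KO at 48 h (SD, n = 4). Neither that difference nor its interaction was called, and levels near 1 FPKM rest on about 1 fragment per library. Nuclear-encoded respiratory chain subunits, whose products assemble with those of the mitochondrial genome, had a median interaction of -0.04 over 29 genes (12 positive; 0.02 and 0.05 under the 2 rescalings) beside the -0.48 of the 13 mitochondrial ones.

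ABHD6 could not check the genotype labels, because its RNA was too low. It was at 1.16, 0, 0 and 0 FPKM in WT and 0 in all KO libraries at 0 h, and at 0.846, 0, 0 and 0 FPKM in WT and 0.718, 0.693, 0.771 and 0 FPKM in KO at 48 h, below the floor for testing. The labelled cell type had its markers: 12 of 12 hepatocyte and hepatoma genes averaged at least 5 FPKM, with a summed level of 1320 to 1588 FPKM in WT and 1152 to 1288 FPKM in KO at 0 h, and 2084 to 2345 and 1919 to 2154 FPKM at 48 h. Of 8 biliary and progenitor markers KRT7 was at 0 in every library, and the sum was 164 to 288 FPKM in WT and 90.4 to 187 FPKM in KO at 0 h and 448 to 810 and 340 to 577 FPKM at 48 h. Of 7 endothelial markers 5, among them VWF and CDH5, were at 0 throughout, and the sum of 8 stellate and fibroblast markers reached at most 15 FPKM. The sum of 8 immune markers was 83.7 to 174 FPKM in WT and 157 to 227 FPKM in KO at 0 h, and 180 to 326 and 229 to 344 FPKM at 48 h, with CD163 and MARCO at 0 throughout. The part of these levels in the results was not tested. The fragments behind a library, read from the steps of its lowest values, numbered 397672 to 752842, so that 1 fragment on a 2 kb transcript was worth 0.664 to 1.257 FPKM, and depth was higher and summed FPKM lower at 48 h than at 0 h in both genotypes.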

How the data were processed

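RNA of Huh7 cells was sequenced from mRNA libraries of a kit that keeps strand, per the labels' protocols. The deposited table holds FPKM values per Ensembl gene, made by the authors with STAR, Cufflinks and Cuffdiff on GRCh38, per the submitters' processing notes; versions, roles and the strand setting are not given in the sources used here. It has 58024 gene IDs and 24 libraries; GENCODE release 29 gave symbols and positions for 98.9% of the IDs, and 45 chromosome Y copies of shared genes, all at 0, were left out.

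Here 1 limma 3.58.1 fit (R 4.3.3) of 6 group means on log2(FPKM + 0.5), with a variance trend, used the 24 libraries and the 17252 genes with a mean of 0.5 FPKM or more; 40727 fell below. No scaling between libraries was added. Benjamini-Hochberg adjustment ran over all genes tested, and an adjusted p under 0.05 was a call. Contrasts were the interaction, KO minus WT at 0 h, 24 h and 48 h, and each genotype's response. The fit was tested on simulated data. A gene was taken as listed at 0 where all libraries of a group were at 0 and another group averaged 5 FPKM or more.

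Genes considered for naming were ABHD6, the 15 highest and 15 lowest called interactions, the 10 highest and 10 lowest moderated t, up to 8 called genes listed at 0, 3 members per list by smallest p, and up to 6 genes called alike at 0 h and 48 h. Genes called between the genotypes at 0 h, 24 h or 48 h and opposite-strand partners were added after their values were seen, and not all named genes are printed. The members and lists were chosen with earlier results of these data known. Replicates of a group had a Pearson r of 0.816 to 0.881 over genes, and no libraries were identical. Alternatives were pseudocounts of 0.1 and 1, no filter or one at 2 FPKM, median-of-ratios and quantile scaling, the 4 groups alone, no variance trend, robust variance, array weights, a replicate block, omission of genes listed at 0 or with opposite-strand overlap, and each library left out. Python 3.11.15 was used for tables and figures.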

Additional observations from a re-analysis of the deposited data

Results flagged for a closer look

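The test of the difference between the genotypes' responses called 9 genes (limma, adjusted p): MT-CO3 (2.44e-24), MT-ATP8 (5.36e-21), MT-ATP6 (1.95e-19), MT-ND5 (0.000129), MT-ND3 (0.00413), AC009630.2 (0.00413), ID2 (0.0297), AL049830.3 (0.0297) and MT-ND4 (0.0319). In 11 of 146 groups of 4 libraries looked at, over 34 genes and the library totals, 1 library stood apart from the other 3. Chance alone flags about 1 in 20 such groups.

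At 0 h the KO group held 6 of these. MT-ATP6 had a lowest KO library of 743 FPKM and MT-CO1 one of 273 FPKM, both in replicate 2. CCDC152 had a lowest KO library of 6307 FPKM, NQO1 one of 1.59 FPKM, and NDRG1 a highest one of 2.01 FPKM with the others at 0. The fragments read from the steps of the values were highest in a KO library at 498431. In WT at 0 h NQO1 had a highest library of 20.5 FPKM and MMEL1 a lowest of 87.3 FPKM.

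At 48 h AC023024.1 had a lowest WT library of 338 FPKM and HPS3 a lowest KO library of 103 FPKM. The summed FPKM of WT at 48 h was lowest in replicate 3, at 748252, which also held the 338 FPKM of AC023024.1.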

How the results depend on the processing

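No called value changed sign under any alternative run. The interaction had 4 calls without a variance trend and 3 without genes listed at 0, 6 without opposite-strand overlap, 8 to 13 under the other settings, and 6 to 13 with 1 library left out. KO against WT at 0 h had 10 calls with the 4 groups alone, 8 without a variance trend and 7 without opposite-strand overlap, and 15 to 36 with 1 library left out, the 36 without replicate 0 of WT at 0 h. KO against WT at 48 h had 7 calls with a pseudocount of 0.1 and with the 4 groups alone, 4 without a variance trend, 2 without genes listed at 0 and 3 without opposite-strand overlap. It had 21 with median-of-ratios rescaling, 26 with quantile normalization, 20 with array weights, and 6 to 33 with 1 library left out, the 33 without replicate 3 of WT at 48 h. KO against WT at 24 h had 1 call with a pseudocount of 1 and without opposite-strand overlap, 5 with either rescaling and 4 without genes listed at 0. The WT response had 750 calls without a variance trend and 220 without opposite-strand overlap, and the KO response 379 without that overlap. With 1 library left out the responses had 887 to 1208 and 1347 to 1772 calls. Causes were not tested, except that omitting genes leaves fewer to test. Median-of-ratios rescaling moved the median of all genes in the KO response by 0.105 on the log2 scale.

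Replicate numbers gave little sign of pairing, though these values do not exclude it. Same-numbered libraries had a median correlation of deviations of 0.016 (-0.09 to 0.144, with 1 of 24 pairs over 0.1). Other-numbered libraries had a median of -0.011 (-0.124 to 0.117, with 4 of 72 pairs over 0.1). Of 16 libraries 6 correlated best with their own number. With a replicate block the calls numbered 13 for the interaction, 24 at 0 h, 27 at 48 h, 0 at 24 h, 1253 in WT and 1753 in KO. The interaction of ID2 was not called with the block (adjusted p = 0.0504). Genes near 1 FPKM rest on about 1 fragment per library, and a difference there was not detectable unless large.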
